A study of Mus musculus with 6 samples.

Results

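MHC class II positive smooth muscle cells of the mouse aorta are vascular smooth muscle cells (VSMCs) that carry transcripts of the antigen-presenting machinery of leukocytes. They were chosen from the measured transcripts themselves. A cell was taken as a VSMC when Myh11, the smooth muscle myosin heavy chain, reached at least 5 and Dcn, a fibroblast proteoglycan, stayed under 20 unique molecular identifiers (UMIs) per 10000. It was called MHC class II positive when it held at least 3 UMIs of Cd74, at least 1 UMI of H2-Aa, H2-Ab1 and H2-Eb1 together, no UMI of the leukocyte gene Ptprc and at most 1 UMI of the macrophage genes C1qa, C1qb and C1qc together. There were 516 such cells among 9744 VSMCs and 24972 cells within the quality limits. The levels of these 10 genes in the cells are therefore a description of the choice and not a result.

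Aortic root and ascending aortic tissue was taken from 6 female mice of the 129SVE background at 16 weeks. According to the labels 4 mice were controls (CTL, Tgfbr1+/+), of which 2 also carried Wnt2CRE and the EGFP-L10a tracer, and 2 were Loeys-Dietz syndrome mice (LDS, Tgfbr1M318R/+) with a heterozygous missense mutation in the type I TGF-beta receptor. Viable nucleated cells (DyeCycle Violet positive, propidium iodide negative) were sorted before 10x Genomics 3' v3 libraries were made. The matrix holds 6 libraries, told apart by a numeric barcode suffix, and none of the sources used here pairs a suffix with a mouse. No library was therefore given a genotype, LDS was not compared with control, and the libraries below are 6 samples of unknown group, for which each value or the range and median is given and no p-value. What follows is a comparison inside each library between the MHC class II positive VSMCs and the 9099 VSMCs that passed the same Myh11, Dcn, Ptprc and C1q limits with fewer than 3 Cd74 UMIs, here called the other VSMCs.

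MHC class II molecules show peptides to CD4+ T cells. They are built from an alpha and a beta chain, H2-Aa with H2-Ab1 or the H2-Eb1 chain with its partner, which assemble in the endoplasmic reticulum with the invariant chain Cd74. In endosomes the invariant chain is trimmed by cathepsins such as Ctss or Ctsl, and H2-DM, made of H2-DMa and H2-DMb1, exchanges the remaining piece for a peptide. The genes are switched on together by the coactivator Ciita, which has no DNA-binding domain and acts through the RFX, CREB and NF-Y factors bound to short X and Y boxes in each promoter. Dendritic cells, macrophages and B cells make these molecules at all times, and other cells, vascular smooth muscle among them, can be made to do so by interferon gamma.

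The promoters of 3 of these genes are shown because all 3 carry the Y-box letters, with X-box letters in H2-Eb1 and H2-DMb1 and a cyclic AMP element in H2-Aa. H2-Aa and H2-Eb1 were used to choose the cells, and H2-DMb1 was measured outside the choice. Each line gives the 110 bases before the start of the gene, 5′ to 3′ on the strand of the gene, from the RefSeq promoters on GRCm38.p6. Capitals mark the Y-box letters TGATTGG, the X-box letters CTAGNAACTGATGATGCT, which are the longest stretch that H2-Eb1 and H2-DMb1 shared with at most 1 mismatch (N), and the cyclic AMP element TGACGTCA, searched on both strands.
H2-Aa, chr17:34287824-34287933, minus strand: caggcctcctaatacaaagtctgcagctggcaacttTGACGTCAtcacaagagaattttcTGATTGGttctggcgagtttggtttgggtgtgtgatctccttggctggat
H2-Eb1, chr17:34305757-34305866, plus strand: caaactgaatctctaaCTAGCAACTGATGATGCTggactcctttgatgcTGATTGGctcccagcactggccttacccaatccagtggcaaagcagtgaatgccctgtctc
H2-DMb1, chr17:34153081-34153190, plus strand: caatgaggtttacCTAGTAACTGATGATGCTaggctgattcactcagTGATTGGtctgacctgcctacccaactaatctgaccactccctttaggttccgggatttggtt

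The letters of all 3 motifs were picked after these promoters had been read, so their presence is a description. The Y-box letters were in 4.95% of the 32851 promoter stretches of the same length, the cyclic AMP element in 1.20%, and the X-box letters in 2 stretches, those of H2-Eb1 and H2-DMb1. None of the 3 motifs was found in the stretches of H2-DMa, Itih4, Psd or Tnnt2, 7 starts in all, which says only that these letters were not in these windows.

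In library totals, the positive cells held 140921 UMIs in library 6 and 573114 to 1236797 in libraries 1 to 5, and the other VSMCs 8421919 to 19870787. The median positive cell was somewhat deeper than the median other VSMC in each library, at 6673 to 14612 against 6204 to 12269 UMIs. Libraries 1, 3, 4 and 5 shared 638 to 1101 barcode sequences per pair and libraries 2 and 6 shared 244, far more than the 2 to 8 of the other pairs. Of the 516 positive cells 62 carried such a barcode, 32 of them in library 1, and a copy held 4.73% of the cell's UMIs in the median. Results without these cells are given with the comparison of genes.

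The share of VSMCs that were MHC class II positive was lowest at 1.25% (95% exact binomial interval 0.603 to 2.29%, 10 of 798 cells) in library 6 and highest at 10.3% (8.88 to 12.0%, 161 of 1556 cells) in library 3. In the other libraries it was 4.60% (74 of 1610 cells), 8.89% (76 of 855), 6.63% (116 of 1750) and 2.49% (79 of 3175) for libraries 1, 2, 4 and 5. The intervals of libraries 2 and 3 overlapped, as did those of libraries 5 and 6, while the intervals of the former pair did not meet those of the latter. These intervals cover counting error only.

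The libraries did not fall in this order by depth. The median VSMC of library 6 held 10913 UMIs and that of library 3 held 6902.5. When each cell was thinned to 3000 UMIs before the rule was applied, 280 of 9053 VSMCs were left as MHC class II positive (3.09%), and the share ran from 0.652% in library 6 to 6.99% in library 3. Macrophages were 0.682%, 0.770%, 1.08%, 1.00%, 0.499% and 1.88% of the cells within the quality limits in libraries 1 to 6. Among libraries 1 to 5 the libraries with more macrophages mostly had the larger share of MHC class II positive VSMCs, while library 6 had the largest share of macrophages and the smallest of positive VSMCs. The part of macrophages in the shares was not tested.

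**Figure D1:**
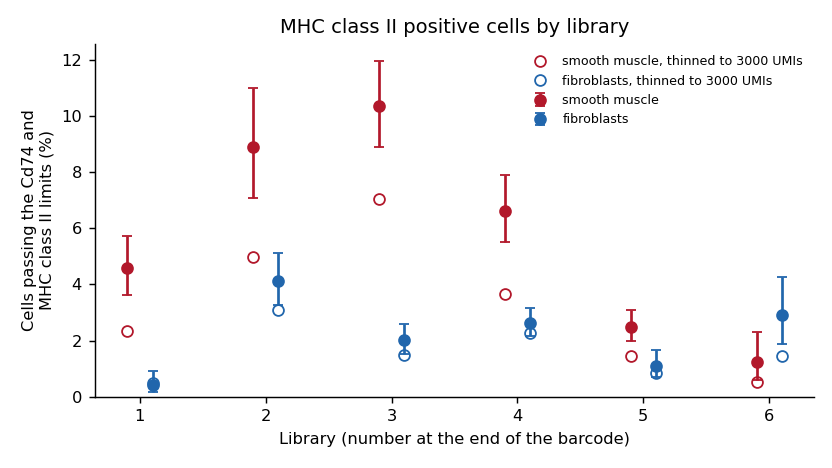
The x axis gives the library and the y axis the percentage of VSMCs (red) or fibroblasts (blue) that passed the Cd74, MHC class II and leukocyte limits, with 95% exact binomial intervals on the filled points. Open points are the shares among cells thinned to 3000 UMIs, and they lie below the filled points in 11 of 12 cases. VSMC shares run from 1.25% to 10.3% and lie above the fibroblast shares in every library but library 6.

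Fibroblasts passed the same Cd74, MHC class II and leukocyte limits in 293 of 13043 cells (2.25%) and endothelial cells in 7 of 474 (1.48%). The fibroblast shares were 0.429%, 4.11%, 2.01%, 2.62%, 1.11% and 2.90% in libraries 1 to 6. The VSMC share was the higher in libraries 1 to 5, with intervals that did not meet, and in library 6 it was the lower, with intervals of 0.603 to 2.29% and 1.89 to 4.25% that overlapped. VSMCs were also deeper than fibroblasts, with median totals of 7231 and 6115 UMIs. When the class of each cell was kept from its full depth and only the Cd74, MHC class II and leukocyte limits were applied to cells thinned to 3000 UMIs, the shares over all libraries were 3.12% of VSMCs and 1.77% of fibroblasts, with intervals of 2.78 to 3.50% and 1.54 to 2.03%.

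Cd74 in the MHC class II positive VSMCs ran from 3 to 300 UMIs per cell with a median of 10, and the 3 class II chains together from 1 to 62 with a median of 4. Summed over the cells, Cd74 lay at 2199 CPM (UMIs of a gene per 1000000 UMIs of those cells) in the median library, between 1064 in library 6 and 2866 in library 3. The macrophages of the same libraries held 29078 to 53715 CPM, far above that. The other VSMCs held 11.0 to 31.0 CPM of Cd74. These values were used for the choice and are given for scale.

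The cells were compared with the smooth muscle markers Acta2, Tagln, Myl9, Cnn1, Smtn, Tpm2 and Lmod1 to check their name. Acta2, smooth muscle actin, lay between 22197 and 27241 CPM in the libraries' MHC class II positive VSMCs, against 27220 to 30507 in the other VSMCs and 608 over all fibroblasts. Tagln, the actin-binding protein transgelin, lay at a median of 21109 CPM against 21171. The log2 ratio of positive over other VSMCs was taken in each library and given as the median of the 6. For the 7 markers it lay between -0.23 for Tpm2 and 0.08 for Lmod1. The positive cells thus held these genes near the levels of the other VSMCs. Both classes had been chosen by Myh11 and Dcn, so this was in part fixed by the choice.

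Leukocyte transcripts were almost absent. The 20 macrophage genes that the choice did not use gave 37 UMIs in the 516 cells, or 8.14 CPM (exact Poisson interval 5.73 to 11.2), against 12.0 CPM (11.2 to 12.9) in the other VSMCs and 19313 CPM in the 225 macrophages, which were defined by Ptprc and C1q. By library the summed level was 0 to 18.4 CPM in MHC class II positive VSMCs and 8.05 to 20.7 CPM in the other VSMCs, and these ranges overlapped. Of the 20 genes, 7 had no UMI in the positive cells, among them the macrophage genes Cx3cr1, Cd163, Adgre1 and Cybb, and 16 lay lower than in the other VSMCs.

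The same genes were set against Cd74. Low macrophage counts were in part fixed by the limits on Ptprc and C1q. The positive cells held 10723 Cd74 UMIs. Macrophages held 53.8 UMIs of the 20 genes per 100 Cd74 UMIs, and the positive VSMCs held 0.345. Lyz2, the lysozyme of macrophages, would have come to 1797 UMIs at the macrophage ratio to Cd74 and was counted 4 times. Tyrobp, a signalling adaptor of myeloid cells, would have come to 416 UMIs and was counted 1 time.

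Another 14 VSMCs with at least 3 Cd74 UMIs had been removed by the Ptprc and C1q limits. Chosen by those genes, these cells held 802 UMIs of the 20 macrophage genes, 53.6 per 100 Cd74 UMIs, with 232 of Lyz2. A doublet score marked 7 of these 14 cells as within the highest 5% of their library, against 12 of 516 (2.33%, 1.21 to 4.03%) positive VSMCs and 284 of 9099 (3.12%) other VSMCs. The intervals of the last 2 shares overlapped.

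Other cell types were looked for in the same way. The 15 dendritic cell genes gave 29 UMIs, of which 23 were Zbtb46, a gene that the other VSMCs also carried (415 UMIs), and 11 of the 15 had none. Of 12 B cell genes 8 had no UMI, and of 13 T and natural killer cell genes 11 had none. Ebf1, on the B cell list, is expressed by VSMCs at large and lay at 181 to 300 CPM in the positive and 191 to 335 CPM in the other cells. The 12 endothelial genes summed to 48.9 to 197 CPM in the positive and 56.3 to 125 CPM in the other VSMCs, with log2 ratios of 0.61 for Pecam1 (higher in 6 of 6 libraries), -0.19 for Eng (lower in 4 of 6) and -0.25 for Esam (lower in 5 of 6), the 3 genes tested. Of 10 mesothelial genes 8 had no UMI in the positive cells, and Krt18 was the one with enough counts (log2 ratio 0.76, higher in 6 of 6). Of 8 glial genes 7 had none. The part of these cell types in the results was not tested.

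**Figure D2:**
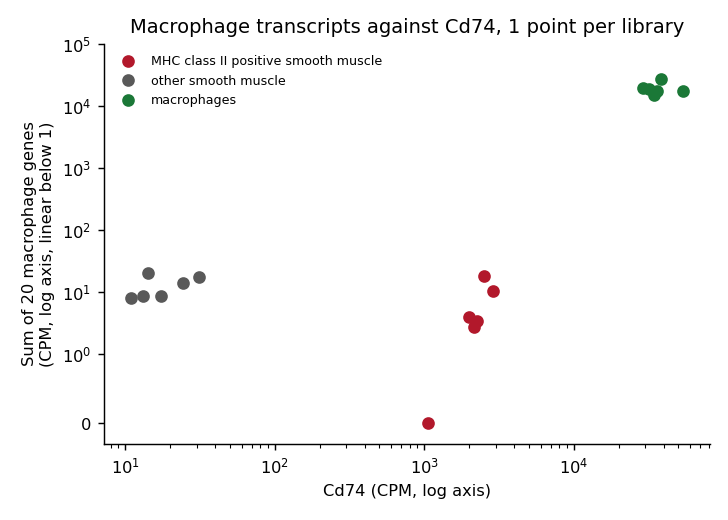
Each point is a class of cells in a library, with Cd74 in CPM on a log x axis and the sum of 20 macrophage genes in CPM on a y axis that is logarithmic above 1 and linear below. MHC class II positive VSMCs lie far to the right of the other VSMCs, at 1064 to 2866 CPM of Cd74, and at 0 to 18.4 CPM of macrophage genes, while macrophages lie at 15120 CPM of macrophage genes or more.

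Of the class II pathway genes outside the gate, the H2-DM pair stood apart. H2-DMb1 (chr17:34153072-34160230, GENCODE M21 on mm10) lay between 47.1 and 90.6 CPM in the positive VSMCs, with a median of 71.2, and between 6.34 and 24.3 in the other VSMCs. H2-DMa (chr17:34119541-34139101) lay between 10.9 and 20.6 CPM, with a median of 14.1, against 0.705 to 2.26. The levels of the 2 classes of cells did not overlap between libraries for either gene. The share of all genes tested without such overlap is not given, so non-overlap is a description here and for the genes below. The log2 ratio was 2.43 in the median library for H2-DMb1 (1.62 to 2.73) and 2.74 for H2-DMa (1.91 to 3.47), with 338 and 68 UMIs in the positive cells.

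A gene was called higher when its log2 ratio was at least 1 in the median library and above 0 in all 6, and lower by the mirror of that rule. By this rule 15 of 7895 genes were called higher (0.190%) and 24 were called lower (0.304%), and the median log2 ratio over all genes was -0.02. Of these, 5 of the 15 (H2-DMa, C4b, Serpina3n, Lmo7 and Spon1) and 14 of the 24 lay under 10 CPM in the class where they were lower, so they passed the limit on low values only through the other class and their counts are no support. Without the cells of shared barcodes, an alternative chosen after seeing the data, 12 genes were called higher, 9 of them among the 15, and the log2 ratios were 2.50 for H2-DMb1, 1.39 for Itih4, 1.25 for Psd and 1.74 for Tnnt2. Of the class II pathway outside the gate, 8 of 18 measured genes had enough counts, and 2 of the 8 were called higher, H2-DMa and H2-DMb1. Both belong to the same transcriptional module as the genes used for the choice, so their level is not independent of it.

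The remaining 6 genes of the pathway lay between -0.26 and 0.00 in the median library. They were the Y-box binding subunits Nfya (-0.26, lower in 6 of 6 libraries), Nfyb and Nfyc, the RFX subunits Rfxap and Rfxank, and the cathepsin Ctsl, at 561 to 692 CPM in the positive and 475 to 697 CPM in the other VSMCs. Ctss, the cathepsin of professional antigen-presenting cells, had 0 UMIs in 516 cells. A floor of 3 counts, used for counts of 0, allows up to 0.581% of cells with a UMI and 0.660 CPM. The 95% exact Poisson interval reaches 0.812 CPM, while macrophages held 1712 CPM.

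The costimulatory genes that T cells need beside the class II molecule were at the same floor. Cd86 and Cd40 had 0 UMIs in the 516 cells and Cd80 had 1. H2-Oa, H2-Ob and H2-DMb2 had 0 UMIs. H2-DMb2 is a near copy of H2-DMb1, so that reads of the pair could have been split between them or dropped in counting.

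Ciita was rare. It gave 15 UMIs in 14 of 516 positive VSMCs (2.71%, 1.49 to 4.51%) and 33 UMIs in 31 of 9099 other VSMCs (0.341%, 0.232 to 0.483%). Macrophages had a Ciita UMI in 53 of 225 cells and endothelial cells in 0 of 474. Among cells thinned to 3000 UMIs the shares were 5 of 506 positive (0.322 to 2.29%) and 16 of 8629 other VSMCs (0.106 to 0.301%), with intervals that did not meet. Ciita was under the limit on low values and was not among the genes called.

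No gene of the interferon gamma response was called. Of 12 tested, 8 had a median ratio above 0 and 4 below, and the median of the list was 0.06 beside -0.02 over all genes. Irf1, an interferon-induced transcription factor, lay at 12.3 to 68.8 CPM in the positive and 14.1 to 70.0 CPM in the other VSMCs. Gbp2, an interferon-induced GTPase, lay at 20.5 to 49.7 against 21.3 to 28.6 CPM. Both overlapped in range, with log2 ratios of -0.02 for Irf1 and 0.04 for Gbp2.

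The exceptions in direction were small. Iigp1, an interferon-inducible GTPase, was higher in 6 of 6 libraries with a log2 ratio of 0.50 (0.20 to 1.67), from 55 UMIs. It lay at 12.1 CPM over the positive and 6.39 CPM over the other VSMCs. Iigp1 thus passed the limit on low values only through the positive cells, and its direction is no support. Over the alternatives its ratio ran from -0.17 to 1.00. Jak2, a kinase of the interferon gamma receptor, was lower in 6 of 6 at -0.58 (-1.18 to -0.21). The type I interferon list had 7 tested genes, a median of 0.00 and no gene called. 

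MHC class I genes, which display peptides to CD8+ T cells, were not called in either direction. None of the 14 tested was called and their median was 0.05. B2m, the shared light chain, lay at 246 to 388 CPM in the positive and 277 to 403 CPM in the other VSMCs. H2-K1 and H2-D1, the heavy chains, had log2 ratios of 0.18 (higher in 5 of 6 libraries) and 0.08 (4 of 6). Tapbpl, a peptide editor of class I, had a ratio of 0.63 from 51 UMIs. It lay above 0 in 6 of 6 libraries, though in library 5 both classes held 5.23 CPM. Over all libraries it lay at 11.2 CPM in the positive and 6.66 CPM in the other VSMCs. Tapbpl thus passed the limit on low values only through the positive cells, and its direction is no support.

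**Figure D3:**
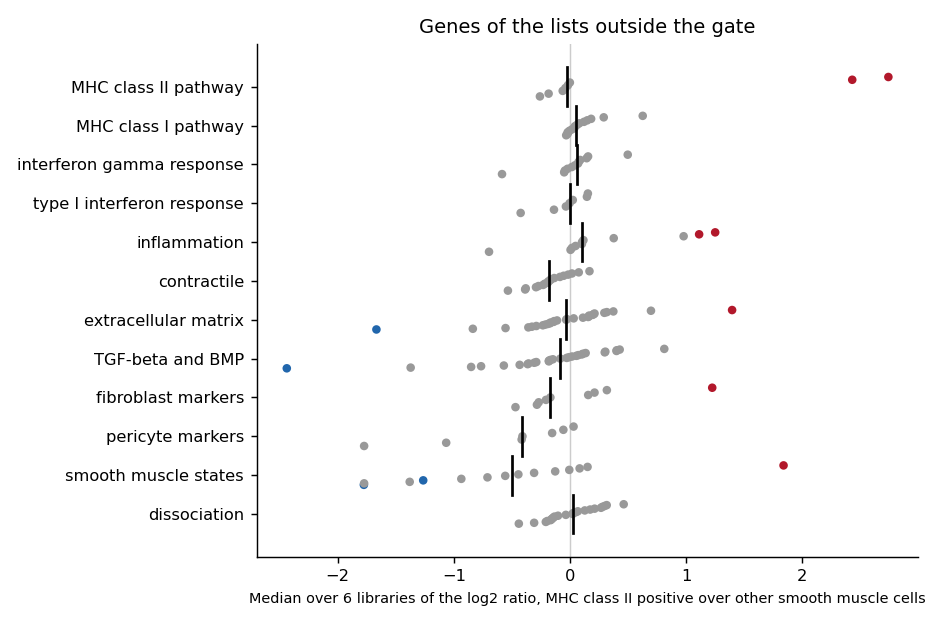
Each point is a gene outside the gate, placed by its median log2 ratio over 6 libraries (x axis) within its list (y axis), red where called higher, blue where called lower and grey otherwise. Black bars are list medians, which lie between -0.50 and 0.10, and in the class II pathway H2-DMa and H2-DMb1 stand at 2.74 and 2.43 while the other genes stand near 0.

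Itih4 (chr14:30886476-30902353), a heavy chain of the inter-alpha-trypsin inhibitor family whose other members bind hyaluronan, lay between 362 and 536 CPM in the positive VSMCs, with a median of 435, against 126 to 250 CPM in the other VSMCs. The ranges did not overlap. Its log2 ratio was 1.39 in the median library (0.94 to 1.58), with 2058 UMIs in the positive cells.

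A UMI of Itih4 was found in 404 of 516 positive VSMCs (78.3%, 74.5 to 81.8%) and in 4327 of 9099 other VSMCs (47.6%). Thinned to 3000 UMIs, the shares were 58.9% (54.5 to 63.2%) and 30.2% (29.2 to 31.2%), and 0 of 206 macrophages had one. To read this the other way, the class of each cell was kept from its full depth and only Itih4 was counted after thinning. Among the positive and other VSMCs together, 3.34% of those without an Itih4 UMI were MHC class II positive. The share was 7.77% of those with 1 UMI and 13.7% (11.8 to 15.8%) of those with 2 or more. The share was higher at each step than at the one before in 5 of 6 libraries, and in library 6, with 10 positive cells in all, it was 0.718%, 2.88% and 2.44%.

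Psd and Bmp3 went the same way with more spread. Psd (chr19:46312087-46327156), an exchange factor for the small GTPase Arf6, lay between 32.4 and 241 CPM in the positive VSMCs and between 17.3 and 56.3 CPM in the others, with a log2 ratio of 1.17 (0.38 to 2.08). Libraries 3, 4 and 5 lay at 131, 117 and 241 CPM, and libraries 2 and 6, at 32.4 and 35.5 CPM, within the range of the other VSMCs. Bmp3 (chr5:98854415-98884396), a BMP family ligand that antagonises osteogenic BMPs, lay between 46.4 and 115 CPM against 19.6 to 63.2, with a ratio of 0.81 (0.36 to 1.54). It was higher in 6 of 6 libraries and was not called. Itih4, Psd and Bmp3 were picked as markers of these cells from the same libraries, so their direction is no independent evidence.

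Relatives of these genes were not called. Itih2, the other Itih family gene with enough counts, had a log2 ratio of 0.10 (-1.46 to 0.72, higher in 3 of 6 libraries). Of the 7 tested exchange factors of the Psd, Iqsec and cytohesin families with Arf6, 1 was called, Psd itself, and the median was -0.01. Psd3 had a ratio of 0.16.

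**Figure D4:**
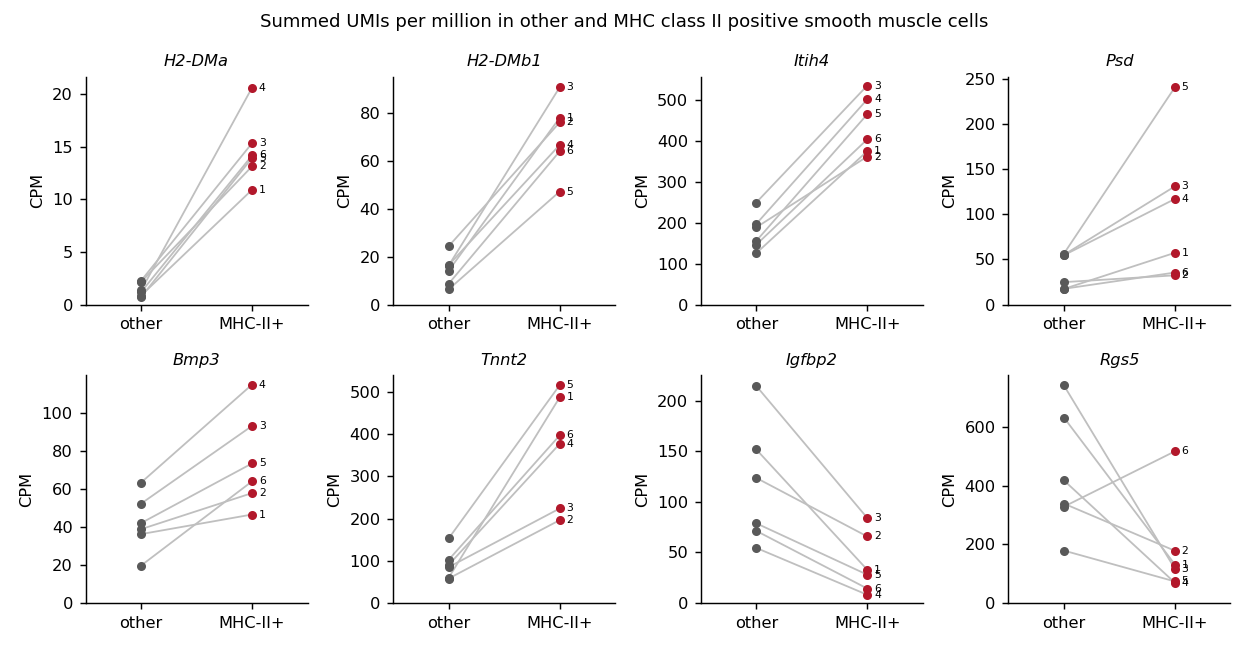
Each panel gives a gene's CPM (y axis, from 0) in the other (grey) and the MHC class II positive VSMCs (red) of a library, joined by a line and numbered by library. H2-DMa, H2-DMb1, Itih4 and Tnnt2 separate without overlap, Igfbp2 is lower in all 6 libraries, and Rgs5 is lower in 5 of 6, with library 6 going the other way.

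Tnnt2, the troponin T of heart muscle, was among the genes called higher. It lay between 196 and 516 CPM in the positive VSMCs, with a median of 387, and between 57.9 and 153 CPM in the others, without overlap, and its log2 ratio was 1.84 (1.40 to 3.02). The other 9 heart muscle genes of the list summed to 35.4 to 114 CPM against 47.8 to 64.9 CPM, 2 of them had enough counts, and neither was called. A Tnnt2 UMI was found in 29.4% of thinned positive VSMCs (25.5 to 33.6%), in 11.3% of the others (10.7 to 12.0%) and in 1.94% of macrophages.

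The class of each cell was again kept from its full depth, and only Tnnt2 was counted after thinning. Among positive and other VSMCs without a Tnnt2 UMI 4.46% (4.02 to 4.93%) were MHC class II positive. Among those with 1 UMI it was 12.5% (9.78 to 15.8%) and among those with 2 or more 13.8% (11.2 to 16.7%). In every library the share was higher with Tnnt2 than without it, while from 1 UMI to 2 or more it was higher in libraries 4 and 5 and lower in libraries 1, 2, 3 and 6. Library 5 gave 229 of the 502 cells with 1 UMI and 269 of the 625 with more. The genes that are found with Tnnt2 in VSMC groups of these libraries did not follow, since Npnt, an extracellular integrin ligand, was lower in 6 of 6 libraries (-0.31) and Fabp3, a fatty acid binding protein, in 5 of 6 (-0.44).

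The comparison was repeated within cells split by Tnnt2. In cells without a Tnnt2 UMI the log2 ratios were 2.21 for H2-DMb1, 1.12 for Itih4 and 1.18 for Psd. Among cells with a Tnnt2 UMI they were 1.80, 0.88 and -0.21, Psd thus lying in the other direction. The difference between the 2 splits was not tested. Itih4 and Psd were not called in either split, and H2-DMb1 in both. These splits were made after Tnnt2 had been seen among the genes called.

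The remaining 10 genes called higher are given here. C4b, complement component 4, lay at 4.10 to 44.5 CPM against 1.31 to 4.87 CPM, with a log2 ratio of 2.73 (1.13 to 3.23). Cxcl12, a chemokine for lymphocytes and progenitor cells, lay at 63.9 to 743 against 51.9 to 329 CPM (1.25), and Vcam1, which binds leukocyte integrins, at 28.4 to 120 against 21.3 to 44.1 CPM (1.11). Fbln1 and Spon1, matrix glycoproteins, had ratios of 1.40 and 1.02, Lum, a collagen-binding proteoglycan, 1.22, and Serpina3n, a protease inhibitor, 1.23. All 7 overlapped in range between the 2 classes of cells. The list was completed by Atp1b1, a subunit of the sodium pump (1.38), Lmo7, an adaptor of actin junctions (1.16), and the uncharacterised transcript 2210407C18Rik (1.05). That transcript was not called without library 1, 4 or 5 (0.90), nor Spon1 without library 3, 5 or 6 (0.91).

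Several of these genes are strong in fibroblasts, endothelial cells or both. Lum stood at 4312 CPM over all fibroblasts, Fbln1 at 2602, Cxcl12 at 1048, Vcam1 at 472 and C4b at 191 CPM. Over all endothelial cells Cxcl12 was at 1584, Vcam1 at 476, Lum at 217, Fbln1 at 188 and C4b at 12.9 CPM. Dcn, which was capped by the rule, was 193 CPM over the positive and 119 CPM over the other VSMCs, against 14788 in fibroblasts. The 13 fibroblast markers outside the gate summed to 3027 to 4791 CPM in the positive and 2640 to 4439 CPM in the other VSMCs, and none was at 0. Of the 9 tested, 4 had a ratio above and 5 below 0, Lum alone was called, and the median was -0.17. 

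Among VSMCs without any Dcn UMI the log2 ratio was 0.30 for Lum, 0.56 for Vcam1, 0.70 for Cxcl12, 0.95 for Fbln1, 1.29 for C4b and -0.30 for Serpina3n. In the same cells it was 2.39 for H2-DMa, 1.18 for Itih4, 1.18 for Psd, 1.18 for Atp1b1 and 1.73 for Tnnt2. Among VSMCs without a Lum UMI, an alternative chosen after seeing the data, the ratio was 0.52 for Vcam1, 0.71 for Cxcl12, 0.95 for Fbln1 and 0.62 for Serpina3n, none of them called, and 1.95 for C4b, which was called there and not among cells without Dcn. With no Dcn UMI 7 genes were called higher, and 4 of them were among the 15, namely H2-DMa, H2-DMb1, Itih4 and Atp1b1.

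Among the 24 genes called lower was Igfbp2. Igfbp2, an IGF binding protein, lay at 8.03 to 84.1 CPM against 54.5 to 215 CPM, with a log2 ratio of -1.77 (-2.68 to -0.91). Chrdl1, a secreted BMP antagonist, had 16 UMIs in the positive cells, 12 of them in library 1, and lay at 0 to 16.4 against 6.21 to 22.7 CPM. Ltbp2, a microfibril protein, lay at 0 to 15.0 against 17.6 to 45.9 CPM without overlap (-1.67, 43 UMIs). Nptx2, a secreted pentraxin (-1.26), the leptin receptor Lepr (-1.66, 13 UMIs), the phosphatase inhibitor Ppp1r14c (-1.65, 22 UMIs), the ketone enzyme Bdh1 (-1.54) and the collagen prolyl hydroxylase P3h2 (-1.38) were lower in 6 of 6 libraries, as were Rasd1, Trnp1 and Fam46b. Chrdl1, Ltbp2, Lepr, Ppp1r14c, P3h2, Rasd1, Trnp1 and Fam46b lay under 10 CPM over the positive cells. They passed the limit on low values only through the other VSMCs, so their counts are no support. The ratio of Ppp1r14c was -2.23 without library 1, 2 or 5 and -1.06 without library 3, 4 or 6, and Lepr was not called without library 4 (-1.49) or library 5 (-1.83).

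The genes that name other VSMC groups of these libraries had a median of -0.50 over 14 tested. Tnnt2 was called higher and Igfbp2 and Nptx2 lower, beside 0.190% and 0.304% of all genes. The list was made with earlier results of these data known, so these calls are no independent evidence. Rgs5, a regulator of G protein signalling found in pericytes and in a group of VSMCs, lay at 68.8 to 518 CPM in the positive and 179 to 743 CPM in the other VSMCs. It was lower in 5 of 6 libraries with a median ratio of -1.77, and higher by 0.65 in library 6, so it was not called. Of the 7 tested pericyte genes 6 had a median below 0 and none was called, with a median of -0.41. The 9 listed pericyte genes summed to 276 to 859 CPM against 439 to 1061 CPM, and these ranges overlapped. Notch3 was at -1.07, again lower in 5 of 6 libraries, and Pdgfrb at -0.06.

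Of 18 contractile genes tested, 15 had a median ratio below 0, 10 were lower in all 6 libraries, none was called, and the list's median was -0.18 with library medians between -0.25 and -0.12. Over all genes tested 5.38% were lower in all 6 libraries. Acta2 (-0.19), Cnn1 (-0.16), Actg2 (-0.39) and Pcp4l1 (-0.53) were lower in every library. Des, the muscle intermediate filament, was at 0.17 (higher in 3 of 6).

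Of 29 matrix genes tested, 13 had a ratio above and 16 below 0, with a median of -0.03. Fbln5, which assembles elastic fibres, was higher in 6 of 6 libraries without overlap, at 1244 to 1717 against 748 to 975 CPM (0.70), though under the size needed for a call. Mfap4, also of elastic fibres, was higher in 6 of 6 (0.37) and so was the calcification inhibitor Mgp (0.62). Mgp stood at 15692 CPM over all fibroblasts, Mfap4 at 2888 and Fbln5 at 876 CPM. Over the alternatives the ratio ran from 0.16 to 0.94 for Mgp, 0.18 to 0.51 for Mfap4 and 0.55 to 0.74 for Fbln5. The part of fibroblast transcripts in these ratios was not tested. Fbln5, Mfap4 and Mgp were singled out from the list by their values.

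Of 29 genes of TGF-beta and BMP signalling tested, 12 lay above and 17 below 0, with a median of -0.08, and Chrdl1 alone was called. Smad7, the inhibitory Smad, was at 0.40 (higher in 6 of 6). Of genes named for regions of this aorta by the study, Gata4, a transcription factor of heart and outflow tract development, lay at 7.10 to 55.8 CPM in the positive and 9.62 to 22.9 CPM in the other VSMCs, higher in 5 of 6 libraries with a median ratio of 1.20. Library 6, where it rests on 1 UMI, went the other way. Tes and Ptprz1, distal genes, were at -0.91 and -0.56, lower in 5 of 6 libraries each. The root genes Enpep and Notch3 were also lower in 5 of 6, at -0.73 and -1.07. Of the 5 tested genes listed for the study's ascending-type VSMC group the median was -0.29. Of the 13 listed for its root-type group it was 0.03, with none called in either. Some genes of these lists, such as Cnn1 and Sox9, were named by the study for differentiation state and not for a region. Tes, Ptprz1, Enpep and Notch3 were taken by the study from its earlier work, while other genes of both lists were named by the study on these samples and are no independent evidence of a direction.

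The inflammation list had Cxcl12 and Vcam1 called of 11 tested, beside 0.190% of all genes, and neither was called without Dcn or without Lum UMIs. It had a median of 0.10 (0.32 without library 1 or without library 4) and 10 genes above 0, of which 4 were above 0 in all 6 libraries, beside 4.21% of all genes. Ptgs2, cyclooxygenase 2, was higher in 5 of 6 libraries (0.98) and was named after its values were seen. It lay at 15.4 CPM over the positive and 7.21 CPM over the other VSMCs, with 198 in macrophages and 66.2 in fibroblasts. Ptgs2 thus passed the limit on low values only through the positive cells, and its direction is no support. Over the alternatives its ratio ran from -0.74 to 1.68. The genes induced by tissue dissociation had a median of 0.02 over 23 tested genes, with 12 above and 11 below 0 and none called. Of 4 tested partners of the CD74 protein, with a median of -0.01, Cd44, its signalling partner, was at 0.64 and Mif, its ligand, at 0.10, higher in 6 of 6 libraries each.

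The levels were set against the number of Cd74 UMIs in the cell, in steps among VSMCs within the Ptprc and C1q limits. They are sums over all libraries, and the mix of libraries can differ between the steps. Itih4 was at 162 CPM in the 8029 cells without Cd74, 225 with 1 UMI, 326 with 2, 411 with 3 to 4, 392 with 5 to 9 and 483 CPM (456 to 510) with 10 or more. H2-DMb1 was at 11.9, 21.4, 30.1, 43.7, 45.7 and 93.7 CPM, and H2-DMa at 1.22, 1.37, 3.13, 6.48, 9.28 and 19.7 CPM, over the same steps. Both H2-DM genes were highest where Cd74 was highest.

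The cells on either side of the limit of 3 UMIs are given as a description. Just outside it, the 188 cells with 2 Cd74 UMIs had 326 CPM of Itih4 (298 to 355) and 133 CPM of Tnnt2 (116 to 153). Just inside it, the 149 cells with 3 to 4 UMIs, 99 of them positive by the rule, had 411 (376 to 448) and 389 CPM (355 to 425). Tnnt2 did not rise further, at 216 CPM (193 to 242) with 5 to 9 UMIs and 344 CPM (321 to 367) with 10 or more. Rgs5 was at 435 CPM without Cd74, 219 with 2 UMIs and 104 with 10 or more, and Igfbp2 at 115, 99.0 and 34.3 CPM. In library 6 Rgs5 went the other way, at 518 CPM in the positive and 329 CPM in the other VSMCs. Lyz2 stayed between 0.386 and 2.51 CPM at every step. Median totals ran from 7174 to 8199 UMIs over the steps.

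**Figure D5:**
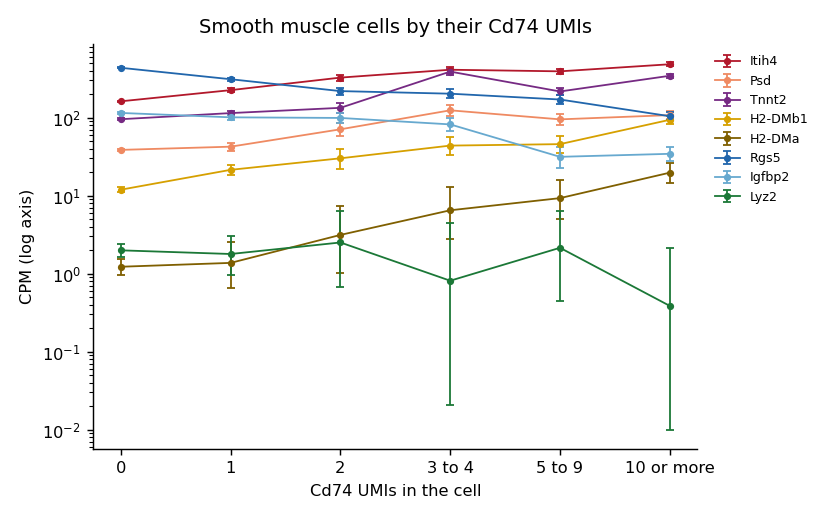
The x axis gives the Cd74 UMIs of a VSMC in 6 steps. The logarithmic y axis gives the CPM of 8 genes, summed over all libraries, with 95% exact Poisson intervals. From no Cd74 to 10 or more UMIs, Itih4 goes from 162 to 483 CPM, H2-DMa from 1.22 to 19.7 and Rgs5 from 435 to 104, while Lyz2 stays at or below 2.51 CPM.

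There were 95 VSMCs with at least 3 Cd74 UMIs and no UMI of the 3 class II chains. Their Itih4 was at 364 CPM, Psd at 122, Tnnt2 at 241, H2-DMb1 at 33.5 and H2-DMa at 5.83 CPM, each between the levels of the other and the positive VSMCs except Psd, which was above both. Their Cd74 was at 765 CPM against 2360 in the positive cells.

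The fibroblasts that passed the same limits were set against the rest of the fibroblasts. In those 293 cells H2-DMb1 was at 153 CPM (139 to 169) against 8.04 in the 12680 fibroblasts with fewer Cd74 UMIs, H2-DMa at 118 against 2.72, Itih4 at 45.4 (37.7 to 54.1) against 7.44 and Tnnt2 at 47.6 against 12.0 CPM. Psd was at 34.7 against 15.5 CPM and Lyz2 at 2.21 against 3.61. These sums run over all libraries, and libraries 2 and 4 gave 76 and 104 of the 293 cells.

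The tracer transcript GFP was found in the positive VSMCs of 4 libraries. A GFP UMI was in 6.76% of positive and 9.80% of other VSMCs in library 1, in 9.21% and 12.2% in library 2, in 8.07% and 3.37% in library 3 and in 5.17% and 5.05% in library 4. The intervals overlapped in all 4 libraries, by a narrow margin in library 3, where they were 4.37 to 13.4% and 2.48 to 4.47%. In libraries 5 and 6 no positive cell, and 2 of 3060 and 4 of 778 other VSMCs, had one. The labels name the tracer for 2 control mice, while the study's methods give it to some of its mice without naming them. Why GFP was found in 4 libraries was not tested.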

How the data were processed

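The authors deposited UMI counts of 31055 features in 30716 barcodes as a single matrix, aligned to mm10 with Cell Ranger, version 6 per the labels and the study's methods and 4.0.0 per the file headers. Whether the aggregation equalised depth is not stated. The quality limits of the study (over 1000 and under 5000 genes, over 1500 and under 25000 UMIs, under 20% mitochondrial UMIs) left 24972 barcodes, close to the total in its methods. The cells were chosen by the UMI limits given above, and the members, gene lists and markers were picked with earlier results of these data known.

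For each library and class of cells, UMIs were added up and given as CPM (per 1000000 UMIs). The log2 ratio used a prior of 0.5 UMI in the class with fewer UMIs and the same prior per UMI in the other. Genes of the gate were left out, and genes needed 10 CPM in either class and 10 UMIs in both together. Macrophages had at least 1 Ptprc and 3 C1q UMIs, fibroblasts reached the Dcn limit, endothelial cells had at least 2 UMIs of Pecam1 and Cdh5 together, all with Myh11 under its limit. The named genes were Itih4, Psd and Bmp3, the genes called in each list or else its 2 highest and 2 lowest, and the 20 highest and 10 lowest called. Others were named after their values were seen. Doublet scores came from scrublet as in scanpy 1.11.5, per library. The ratios were also run on counts simulated with known folds and counting error only. That run does not cover the spread of the real data between cells or of folds between libraries. Python 3.11.15, NumPy 2.4.6 and SciPy 1.17.1 were used. Thinning drew 3000 UMIs per cell without replacement. For the thinned shares of cells with a UMI of Itih4, Tnnt2 or Ciita, the class of each cell was kept from its full depth. Intervals are 95% and cover counting error, and cells of a library are not replicates. Alternatives covered the limits, the choice of other VSMCs, leukocyte UMIs, doublets, the prior, the filter and each library left out.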

Additional observations from a re-analysis of the deposited data

Results flagged for a closer look

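In 27 groups of 6 library values, 2 had a library whose gap to its nearest neighbour was large for the range of the 6, and about 1 in 20 such groups shows this by chance. The log2 ratio of Rasd1, a Ras-related G protein, was -0.0232 in library 4 and between -1.78 and -1.28 in the other libraries, where it rested on 2 to 10 UMIs in the positive cells. The log2 ratio of P3h2 was -3.66 in library 5, from 1 UMI, and between -1.62 and -0.79 in the others.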

How the results depend on the processing

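No paired analysis was possible because no source pairs the libraries with mice, and different mice of CTL and LDS share only a number in the labels. The classes of cells were compared inside each library, with no test.

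Depth limits the statements on rare genes, since the positive cells held 140921 UMIs in library 6 and 10 cells there. The count of genes called higher was 7 with no Dcn UMI, 27 from a single sum over libraries, and, in alternatives chosen after seeing the data, 5 among cells with a Tnnt2 UMI, 5 among cells without a Tnnt2 UMI and 8 among cells without a Lum UMI. The count called lower was 39 from the single sum and 4 with a filter of 50 CPM, where fewer genes were tested. Leaving out a library gave 15 to 24 genes higher, the 24 without library 6, and 24 to 38 lower, the 38 without library 1, of which 14 and 24 were among the original genes. The median of the class I list was 0.15 from the single sum, and that of the matrix list 0.13 among cells with Tnnt2. Thinning to 3000 UMIs left 280 positive VSMCs, 1.77% of fibroblasts and 0.551% of endothelial cells. Serpina3n turned to -0.30 with no Dcn UMI, Psd to -0.21 among cells with Tnnt2 and Lmo7 to -0.32 among cells without. The cause was not tested in any of these. The ratio of H2-DMb1 lay between 1.80 and 2.50 and was called in all alternatives run for it, that of H2-DMa between 1.99 and 3.44 called except with the filter of 50 CPM, which it did not pass, and that of Itih4 between 0.88 and 1.44 with 2 exceptions, the cells with and without Tnnt2.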
